A study of Homo sapiens with 4 samples.

Results

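The genes described here are the aminoacyl-tRNA synthetase genes and the complex partners AIMP1 and AIMP2, taken by symbol from the deposited count table. All 37 listed genes had a row among the 28814 of the table, and all 37 passed the filter on low counts that left 16862 genes for testing. Of these, 17 encode cytosolic synthetases, 16 encode mitochondrial ones (symbols ending in 2), 2 (GARS1 and KARS1) each supply both compartments from 1 gene, and 2 are the partners. The cells were of the line 697, established from a human acute leukaemia of B-cell precursors. Exposure lasted 24 h, to MZ1 at 1 µM or to DMSO in matching volume, and 2 libraries of RNA were sequenced per treatment. MZ1 joins a ligand of BET bromodomain proteins to one that recruits the ubiquitin ligase VHL, so that the bound protein is degraded. Every library comes from this 1 line, and the labels leave unsaid if replicates are separate cultures. The p-values therefore set the difference between treatments only against the variation between these libraries, and that variation may be technical.

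Each synthetase joins an amino acid to the transfer RNAs that carry its anticodons, and the charged tRNA is then handed to the ribosome. The enzymes fall into class I and class II, with unrelated catalytic folds, and several cytosolic ones are held in a multi-synthetase complex by scaffold proteins that include AIMP1 and AIMP2. Mitochondria translate their own few mRNAs with a separate set of synthetases that are encoded in the nucleus. Uncharged tRNA activates the kinase GCN2 (EIF2AK4), which raises translation of the transcription factor ATF4, and many cytosolic synthetase genes are known ATF4 targets.

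Libraries held 14246367 to 16488005 counted reads. Levels are given in CPM (counts scaled to the library total with trimmed-mean factors), and a log2 fold change is MZ1 over DMSO. Levels are relative within a library, since no spike-in is named, and in bulk RNA fewer cells of a type and less RNA per cell cannot be told apart. MYC, a transcription factor known to act on synthetase genes, was at 495 and 522 CPM in the DMSO libraries and at 6.08 and 5.57 CPM in the MZ1 libraries. Mitochondrially encoded genes took 5.48% to 5.82% of counts with DMSO and 8.98% to 9.26% with MZ1. By the test given below, 41.3% of all tested genes were called lower and 42.8% higher. B-cell precursor markers (12 of 12 tested, 11 called lower) summed to 4352 to 4378 CPM with DMSO and 1626 to 1673 CPM with MZ1. Myeloid markers (5 of 5 tested, 4 called higher and 1 lower) summed to 5.31 to 6.66 and 24.9 to 28.3 CPM, with MPO at 0 counts in both DMSO libraries. Of 5 erythroid markers only ALAS2 was tested, at 0.122 and 0.472 CPM with DMSO and 2.69 and 2.31 CPM with MZ1. Of 5 epithelial or stromal markers only COL1A1 was tested (10.6 to 13.9 CPM over the libraries), and 0 of 5 T cell markers were. The part of these shifts in the synthetase results was not tested.

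Synthetase transcripts were mostly lower after MZ1, and a minority that included both arginine and both histidine genes was higher. Of the 37 genes, 30 were lower and 7 higher by edgeR's quasi-likelihood test, called where the p adjusted by Benjamini-Hochberg over all 16862 genes was under 0.05. Over all tested genes 41.3% were called lower and 42.8% higher, or 84.2% in either direction. Among the 12639 protein-coding genes tested the shares were 48.8% lower and 38.5% higher. At least 2-fold falls were called for 27 of the 37, against 26.2% of all tested genes and 29.9% of protein-coding ones. At least 4-fold falls numbered 16, against 12.2% of all tested genes. The median log2 fold change of the 37 was −1.71, with a range of −4.06 to 0.74, beside a median of 0.05 for all tested genes and −0.20 for protein-coding ones. MZ1 and DMSO libraries did not overlap for any of the 37, as for 91.3% of all tested genes. The sum over the 35 synthetases was 5045 ± 19.4 CPM with DMSO and 2056 ± 5.08 CPM with MZ1 (SD, n = 2 each), or 2.45-fold lower.

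**Figure D1:**
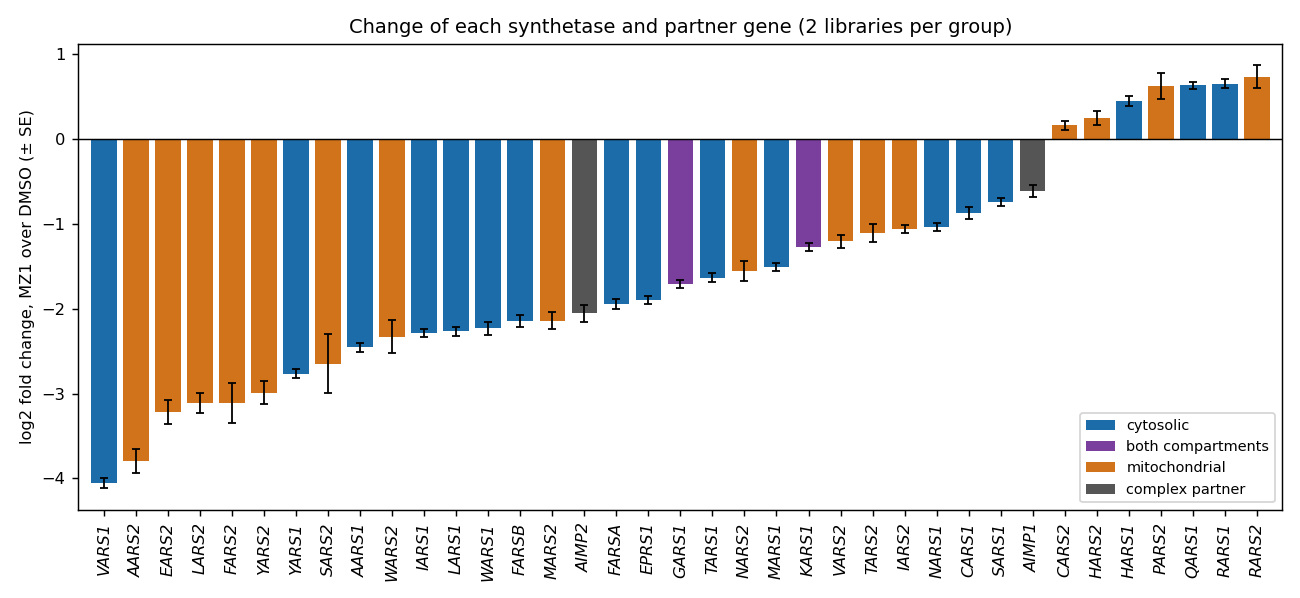
Log2 fold change (MZ1 over DMSO, vertical axis) of each of the 37 genes in order of size, with bars coloured by compartment and error bars showing the standard error from edgeR. The bars run from −4.06 for VARS1 to 0.74 for RARS2, and cytosolic and mitochondrial genes stand on both sides of 0.

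Among cytosolic synthetases outside the multi-synthetase complex, 11 of 12 were lower and HARS1 was higher. Of all tested genes, 41.3% were called lower and 42.8% higher. VARS1, the valine enzyme (chr6:31777518-31795953, GRCh38), was at 298 and 309 CPM with DMSO and at 18.4 and 18.0 CPM with MZ1. This 16.7-fold fall (log2 fold change −4.06 ± 0.06, SE; edgeR adjusted p = 3.94e-26) was the largest of the 37. YARS1, for tyrosine (chr1:32775237-32818153), went from 300.4 and 301.5 to 44.3 and 44.1 CPM. Its log2 fold change was −2.77 ± 0.05 (edgeR adjusted p = 2.87e-24). AARS1, for alanine (chr16:70252295-70289543), had 350.3 and 345 CPM with DMSO against 65.6 and 61.3 CPM with MZ1, a change of −2.45 ± 0.05. For each of these 3 genes the replicates of a treatment lay close together and the treatments far apart.

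WARS1, the tryptophan enzyme, which is also known as an interferon-induced gene, was at 101 and 94.4 CPM with DMSO and at 19.9 and 21.7 CPM with MZ1 (−2.23 ± 0.07). The phenylalanine enzyme is built from an alpha subunit, FARSA, and a beta subunit, FARSB, which fell by 1.95 ± 0.06 and 2.15 ± 0.07 on the log2 scale. Per kilobase of exon, the ratio of FARSA to FARSB was 2.07 and 2.31 in the DMSO libraries and 2.39 and 2.66 in the MZ1 libraries. The 3.85-fold fall of FARSA and the 4.43-fold fall of FARSB left the ratio higher in both MZ1 libraries, by about as much as replicates differed.

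Smaller falls were seen for the other free cytosolic enzymes. GARS1, the glycine enzyme for both compartments, was lower by 3.26-fold (257 and 254 against 77.0 and 79.4 CPM). TARS1, for threonine, was lower by 3.10-fold (220 and 214 against 70.3 and 69.4 CPM). NARS1, for asparagine, was lower by 2.05-fold, CARS1, for cysteine, by 1.83-fold and SARS1, for serine, by 1.67-fold. The cytosolic class I genes had a median log2 fold change of −2.23 (7 of 9 lower) and the class II genes one of −1.63 (8 of 9 lower), leaving out EPRS1, which holds a domain of each class. The ranges overlapped, −4.06 to 0.65 for class I and −2.45 to 0.45 for class II. Beside these counts, 41.3% of all tested genes were called lower.

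Within the multi-synthetase complex the members moved apart. Of the 9 listed genes of the complex, 7 were lower and 2, QARS1 and RARS1, were higher. The shares over all tested genes were 41.3% lower and 42.8% higher. IARS1, for isoleucine (chr9:92210207-92293756), was at 438 and 417 CPM with DMSO and at 85.9 and 89.6 CPM with MZ1, a change of −2.28 ± 0.05 (edgeR adjusted p = 2.57e-23). LARS1, for leucine, the enzyme also known as a leucine sensor upstream of mTORC1, was at 282 and 275 against 56.5 and 59.3 CPM, a change of −2.27 ± 0.05. EPRS1, the fused glutamate and proline enzyme, went from 374 and 366 to 101 and 98.2 CPM (−1.89 ± 0.05). These 3 large subunits thus fell by 3.72-fold to 4.87-fold.

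MARS1, for methionine, was at 304 CPM in both DMSO libraries and at 113 and 101 CPM with MZ1. Its exons overlap those of other genes over 13.3% of their length, among them DDIT3 on the opposite strand. KARS1, for lysine in both compartments, was at 285 and 271 against 113 and 117 CPM, 2.41-fold lower. The scaffold genes differed in size of change. AIMP2 was 4.15-fold lower (50.5 and 54.3 against 13.6 and 11.6 CPM), and 28.9% of its exonic length overlaps the opposite-strand gene EIF2AK1. AIMP1 was 1.53-fold lower (62.1 and 58.6 against 37.6 and 41.4 CPM). Whether counting used strand is not given in the sources used here, and reads of such overlaps cannot be assigned.

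QARS1, the glutamine enzyme (chr3:49095932-49105135), was at 243 and 248 CPM with DMSO and at 381 and 383 CPM with MZ1. Its rise was 0.64 ± 0.04 on the log2 scale (edgeR adjusted p = 2.75e-13). RARS1, for arginine (chr5:168486445-168519299), rose from 74.6 and 73.2 to 113 and 119 CPM (0.65 ± 0.05; edgeR adjusted p = 2.52e-11). Both rises were about 1.55-fold to 1.57-fold, and for both genes each MZ1 library was above each DMSO library. Per kilobase of exon, these 2 genes made up 21.0% and 21.7% of the summed level of the 7 synthetases of the complex with DMSO, and 58.5% and 59.0% with MZ1. QARS1 stood at 1.49 and 1.55 times LARS1 per kilobase in the DMSO libraries and at 11.6 and 11.1 times in the MZ1 libraries.

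**Figure D2:**
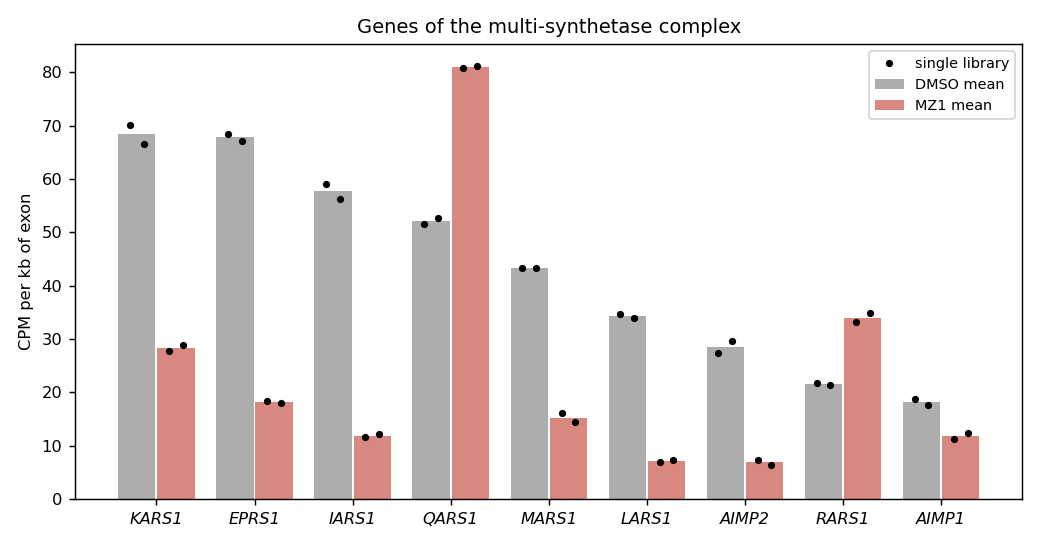
Level per kilobase of exon (CPM per kb, vertical axis) of the 9 listed genes of the multi-synthetase complex, with bars for the mean of 2 libraries per treatment and points for single libraries. QARS1 rises from 52.2 to 81.1 and RARS1 from 21.6 to 34.0, while the MZ1 bars of the other 7 genes are below their DMSO bars.

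EEF1E1 (also called AIMP3), which belongs to the same complex but not to the 37 genes, was lower as well. It was at 14.3 and 15.9 CPM with DMSO against 1.77 and 1.08 CPM with MZ1, a change of −3.39 ± 0.22, with 18.7% of its exonic length shared with a readthrough gene. Outside the complex, TARS3, a paralog of TARS1, was at 6.84 and 8.56 CPM with DMSO and 12.9 and 11.0 CPM with MZ1, a rise of 0.63 ± 0.16.

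Windows around the transcription start, from 250 bases before to 50 after, were taken from RefSeq (GRCh38.p14) for 32 of the 37 genes (44 windows). AARS2, LARS1, VARS1, VARS2 and YARS1 were not matched by symbol in the table of windows used and were not searched. The windows were searched on both strands for TGATGNAA, the core of the element bound by ATF4 with C/EBP proteins. It was present in 8 of the 44 windows, and in 3.62% of all 35116 windows of the same length. By gene, 8 of 25 lower members held it and 0 of 7 higher ones. Of the 8, 7 were among the 16 cytosolic and shared genes with a window and 1, YARS2, among the 14 mitochondrial ones. Since 4 of the 7 higher genes are mitochondrial, these counts do not separate direction from compartment. Among the 13 lower cytosolic and shared genes with a window, the 7 that held it had a median log2 fold change of −1.63 (range −2.45 to −0.87) and the 6 without it one of −1.92 (range −2.23 to −0.74), and these ranges overlap. This comparison leaves out VARS1, YARS1 and LARS1, lower cytosolic genes that were not searched, with log2 fold changes of −4.06, −2.77 and −2.27. Of the 8 genes with the match, AARS1 and YARS2 held it well upstream of the start and the other 6 close to the start.

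The stretches from 70 bases before to 30 after the start are shown for those 6 genes. The genes were picked by the match, so the letters they share follow from that choice. Counted from the start, the match begins at −33 in GARS1, −13 in IARS1, −4 in MARS1, −2 in CARS1, 3 in TARS1 and 15 in NARS1. The stretches are written on the strand of the gene with the match in capitals. On that strand the match reads as the reverse complement of TGATGNAA in IARS1, GARS1, TARS1, MARS1 and CARS1, and as TGATGCAA in NARS1.
IARS1, chr9:92293668-92293767, minus strand: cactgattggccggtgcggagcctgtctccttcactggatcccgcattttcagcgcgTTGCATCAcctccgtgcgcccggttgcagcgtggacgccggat
GARS1, chr7:30594808-30594907, plus strand: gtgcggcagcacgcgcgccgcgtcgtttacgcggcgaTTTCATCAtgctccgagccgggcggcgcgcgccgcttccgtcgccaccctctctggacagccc
TARS1, chr5:33440895-33440994, plus strand: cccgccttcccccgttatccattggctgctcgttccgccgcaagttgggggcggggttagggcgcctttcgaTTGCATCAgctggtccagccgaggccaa
MARS1, chr12:57487998-57488097, plus strand: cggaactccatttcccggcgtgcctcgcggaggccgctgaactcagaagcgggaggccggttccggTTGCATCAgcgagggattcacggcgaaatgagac
NARS1, chr18:57621807-57621906, minus strand: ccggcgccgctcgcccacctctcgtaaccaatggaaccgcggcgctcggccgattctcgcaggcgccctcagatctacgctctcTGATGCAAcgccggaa
CARS1, chr11:3057394-3057493, minus strand: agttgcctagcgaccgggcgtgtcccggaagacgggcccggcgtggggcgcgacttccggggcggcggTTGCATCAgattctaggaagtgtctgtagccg

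The same stretches of the 3 cytosolic genes that rose hold no match and are shown for comparison, wholly in lower case. The 6 lower cytosolic and shared genes with a window but no match are WARS1, FARSB, FARSA, EPRS1, KARS1 and SARS1. They and the other lower genes without a match are not shown, so the printed stretches do not tie the match to direction.
QARS1, chr3:49104728-49104827, minus strand: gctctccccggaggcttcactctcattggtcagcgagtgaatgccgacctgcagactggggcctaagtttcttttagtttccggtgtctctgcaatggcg
RARS1, chr5:168486401-168486500, plus strand: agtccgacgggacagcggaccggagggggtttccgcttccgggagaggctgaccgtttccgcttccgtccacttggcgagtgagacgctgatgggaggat
HARS1, chr5:140691341-140691440, minus strand: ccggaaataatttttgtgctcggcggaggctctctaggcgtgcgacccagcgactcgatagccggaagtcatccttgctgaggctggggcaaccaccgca

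Other motifs were searched in the same windows and none of their matches overlapped a match of another. The E-box CACGTG, bound by MYC with MAX, was in 6 of the 44 windows and in 7.26% of all windows, and by gene in 4 of 25 lower members and 1 of 7 higher ones. The motif of the factor NRF1 was in 9 of the 44 windows and in 5.78% of all, by gene in 6 of 25 lower and 1 of 7 higher members. TGACGTCA, the cyclic AMP response element, was in 1 of the 44 and in 1.85% of all. Some genes have overlapping windows, so windows of 1 gene are not separate cases.

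Histidine and arginine genes were higher in both compartments. HARS1 was at 87.6 and 93.3 CPM with DMSO and at 129 and 118 CPM with MZ1 (0.45 ± 0.05; edgeR adjusted p = 4.91e-08). HARS2 was at 33.0 and 30.5 against 38.5 and 37.1 CPM, a smaller rise of 0.25 ± 0.08 (edgeR adjusted p = 0.00733). These genes lie head to head on chromosome 5, their RefSeq start windows share 184 bases, and 8.38% of the exonic length of HARS1 and 15.8% of that of HARS2 is shared with other genes, each with the other among them. The HARS2 call was lost with library totals alone (0.18, adjusted p = 0.0529), without a count filter (0.18, adjusted p = 0.0885) and without DMSO replicate 2 (0.16, adjusted p = 0.183), all by edgeR, and it rose to 0.52 with upper-quartile scaling.

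RARS2, the mitochondrial arginine enzyme (chr6:87514378-87590003), was at 9.22 and 10.6 CPM with DMSO and at 16.9 and 16.1 CPM with MZ1. The rise of 0.74 ± 0.13 (edgeR adjusted p = 2.06e-05) was the largest of the 37 in this direction. PARS2, for mitochondrial proline, was at 9.47 and 7.49 against 12.3 and 13.9 CPM (0.63 ± 0.15; edgeR adjusted p = 5.66e-04). CARS2, for mitochondrial cysteine, was at 99.1 and 106 against 118 and 112 CPM, a log2 fold change of 0.16 ± 0.05 (edgeR adjusted p = 0.00664). The CARS2 call did not hold with library totals alone (0.09, adjusted p = 0.134), without a count filter (0.09, adjusted p = 0.238), or without DMSO replicate 1 (0.07, adjusted p = 0.335) or MZ1 replicate 1 (0.13, adjusted p = 0.0564). With upper-quartile scaling it was 0.43. None of the 7 rises reached 2-fold, whereas 29% of all tested genes were called higher by at least that much.

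The mitochondrial synthetase genes included some of the steepest falls and also 4 of the 7 rises. Of the 16, 12 were lower, each by at least 2-fold, and 8 of them by at least 4-fold. Over all tested genes 41.3% were called lower, 26.2% by at least 2-fold and 12.2% by at least 4-fold. AARS2, for alanine (chr6:44299654-44313326), was at 38.7 and 39.1 CPM with DMSO and at 2.97 and 2.60 CPM with MZ1, 13.9-fold lower (−3.80 ± 0.14; edgeR adjusted p = 2.19e-18). EARS2, which charges mitochondrial glutamate tRNA and, in the first step of an indirect route, glutamine tRNA, was at 44.8 and 46.4 against 3.68 and 6.14 CPM (−3.22 ± 0.14). The amidotransferase genes that complete the indirect route gave unequal values. QRSL1 was at 95.4 and 89.5 against 14.01 and 17.6 CPM, and 2 genes named outside the rule for list members, GATB and GATC, had log2 fold changes of −2.61 (called lower) and −0.11 (not called, with 47.6% of its exonic length shared with other genes).

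LARS2, for leucine, was at 50.2 and 57.9 CPM with DMSO and at 5.8 and 6.72 CPM with MZ1 (−3.11 ± 0.12). YARS2, for tyrosine, was at 36.6 and 40.7 against 5.52 and 4.19 CPM (−2.99 ± 0.13). FARS2, the single-chain mitochondrial phenylalanine enzyme, was at 16.4 CPM in both DMSO libraries and at 0.990 and 2.82 CPM with MZ1, which rest on 14 and 39 reads. For FARS2 the MZ1 libraries thus differed from each other by more than for most members, and the log2 fold change of −3.11 carried a standard error of 0.23. WARS2, for tryptophan, was likewise spread, at 15.6 and 15.4 against 2.26 and 3.90 CPM (−2.33 ± 0.19). SARS2, for serine, was at 4.58 and 4.01 against 0.637 and 0.723 CPM, or 9 and 10 MZ1 reads, and its level is uncertain because 57.0% of its exonic length overlaps other genes.

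Lesser falls were measured for the remaining mitochondrial enzymes. MARS2, for methionine, was 4.40-fold lower and NARS2, for asparagine, 2.94-fold lower. VARS2 was 2.31-fold lower (77.4 and 92.1 against 36.4 and 37.2 CPM), with 22.0% of its exonic length shared with GTF2H4. TARS2 was 2.15-fold lower. IARS2, at 214 CPM in both DMSO libraries and 103 CPM in both MZ1 libraries, was 2.08-fold lower and had the highest level per kilobase of the mitochondrial genes under both treatments.

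**Figure D3:**
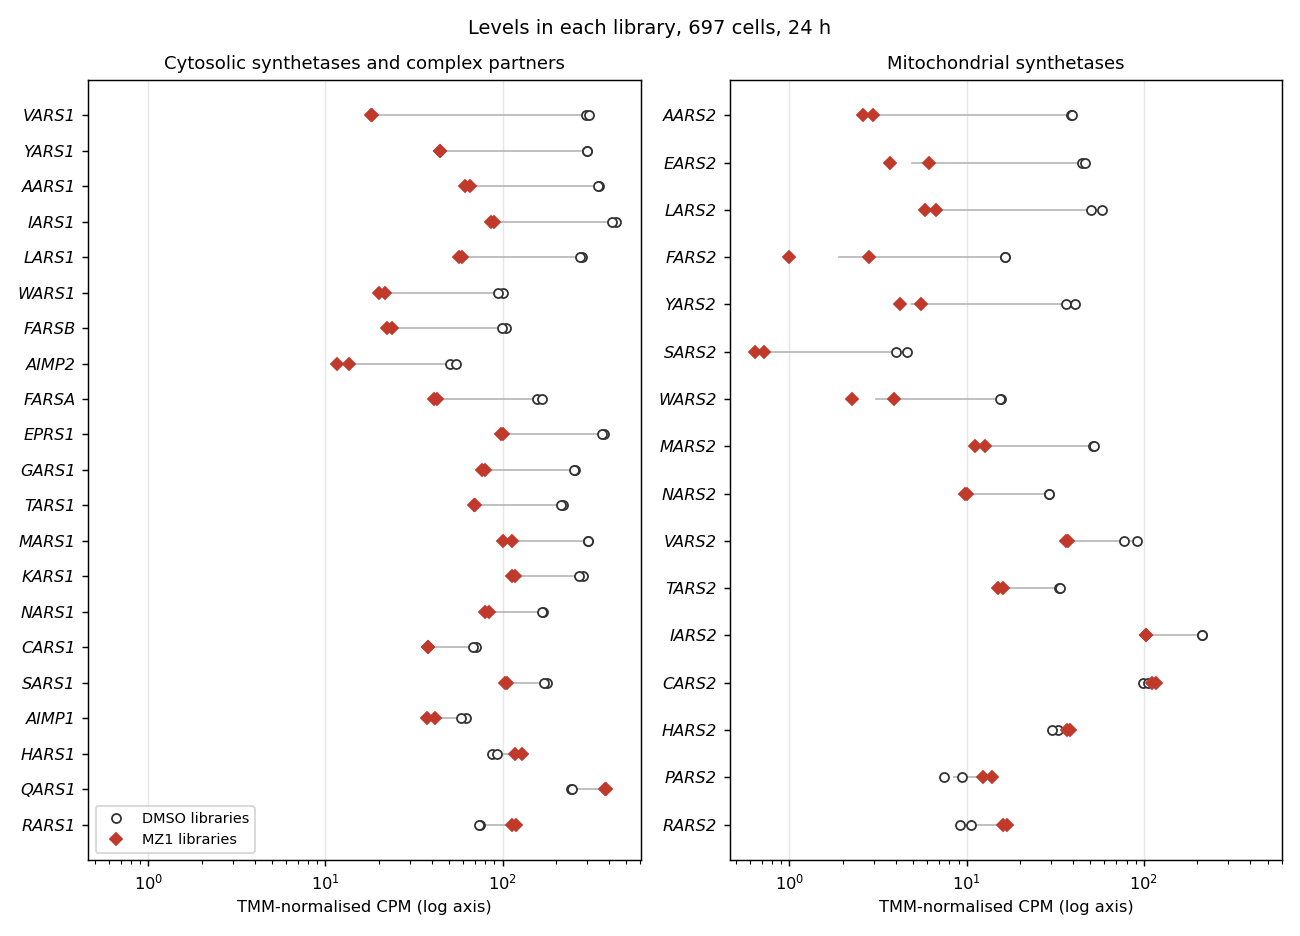
Level of each gene in each library (TMM-normalised CPM, log axis), with open circles for the 2 DMSO libraries, diamonds for the 2 MZ1 libraries and lines joining the means; cytosolic synthetases and partners are on the left and mitochondrial synthetases on the right. VARS1 moves from about 303 to 18.2 CPM and AARS2 from 38.9 to 2.79 CPM, and CARS2 shows the closest approach of the treatments, at 106 and 112 CPM.

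By compartment, the order of the medians depended on which genes were counted. The 19 genes that serve the cytosol (GARS1 and KARS1 included) had a median log2 fold change of −1.71, with 16 lower and 3 higher, and the 16 mitochondrial genes one of −1.85, with 12 lower and 4 higher. Over all tested genes 41.3% were called lower and 42.8% higher. For the 17 genes of the cytosol alone the median was −1.89. Without genes that share over 10% of their exonic length with others, it was −1.71 for the cytosol (17 genes, GARS1 and KARS1 included) and −2.14 for mitochondria (13 genes). Over the full sets the interquartile range was −2.25 to −0.95 for the cytosol and −3.02 to −0.75 for mitochondria. Summed per kilobase of exon, mitochondrial genes made up 17.1% and 17.7% of the synthetase level in the DMSO libraries and 18.6% and 18.8% in the MZ1 libraries. The summed level fell 2.40-fold for the cytosol and 2.19-fold for mitochondria.

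Within single amino acids the compartments often differed. There were 17 pairs of a mitochondrial and a cytosolic gene, over 16 amino acids, with FARS2 set against both FARSA and FARSB. In 15 pairs both genes changed in the same direction and in 2, cysteine and proline, in opposite ones. Since 16 of the 19 cytosolic and shared genes and 12 of the 16 mitochondrial ones were lower, many pairs of any such genes share a direction. The mitochondrial gene had the lower log2 fold change in 11 pairs and the higher in 6, with a median difference (mitochondrial minus cytosolic) of −0.22. Differences ranged from −1.91 ± 0.35 for serine, with the uncertain SARS2, and −1.35 ± 0.15 for alanine to 2.53 ± 0.16 for proline and 2.85 ± 0.10 for valine (SE combined from both genes). For tryptophan the difference was −0.10 ± 0.21 and for arginine 0.08 ± 0.14, smaller than their errors. EPRS1 enters the glutamate pair and the proline pair, in which the mitochondrial partners EARS2 and PARS2 were at −3.22 and 0.63.

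**Figure D4:**
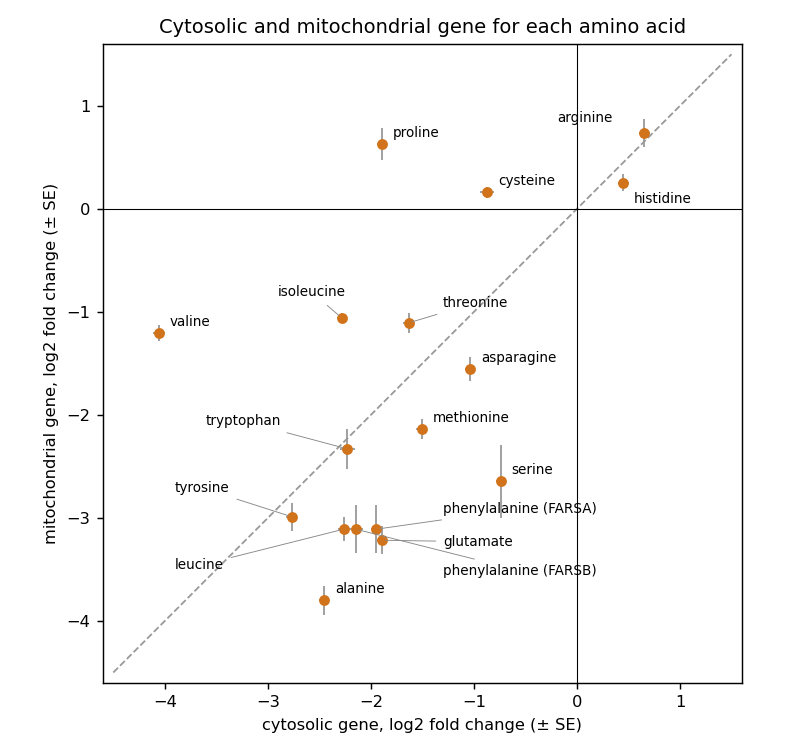
Log2 fold change of the mitochondrial gene (vertical axis) against that of the cytosolic gene (horizontal axis) for each amino acid, with standard errors and a dashed line of equal change. Histidine and arginine are the pairs with both genes above 0, proline and cysteine have the mitochondrial gene above 0 and the cytosolic gene below, and valine lies farthest above the dashed line, by 2.85.

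The order of levels per kilobase of exon changed with treatment. With DMSO the highest were AARS1 (77.3 ± 0.82 CPM per kb, SD, n = 2), KARS1 (68.4 ± 2.50), EPRS1 (67.8 ± 1.00) and FARSA (66.4 ± 2.55), of which the last 3 did not differ beyond their spread. With MZ1 the order was led by QARS1 (81.1 ± 0.26), RARS1 (34.0 ± 1.26), KARS1 (28.3 ± 0.74) and SARS1 (27.3 ± 0.65). RARS1 moved from position 18 of 37 to position 2, HARS1 from 23 to 10 and VARS1 from 9 to 30. Among the 19 cytosolic genes, the highest level was 11.0 and 11.3 times the lowest in the DMSO libraries and 26.8 and 27.5 times in the MZ1 libraries. Exonic lengths join all annotated exons of a gene, whether or not these cells use them, so a level per kilobase may be understated. CARS1, the lowest cytosolic gene with DMSO, has a joined length of 10037 bases.

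Several members start within 1000 bases of a gene on the opposite strand. Apart from HARS1 and HARS2 there were 9 such pairs with a protein-coding gene. In 6 both genes were called in the same direction, in 2 in opposite directions, and in 1 the neighbour was not called. Of all protein-coding genes tested 48.8% were called lower and 38.5% higher, so many neighbours of any gene share its direction. Among the 6, UBFD1 beside EARS2 changed by only −0.19, and the CARS2 call beside ING1 did not hold in every alternative. FARS2 and its neighbour LYRM4, which acts in iron-sulphur cluster assembly, were both lower, and LYRM4 was at 37.4 and 35.7 CPM with DMSO against 12.2 and 12.6 CPM with MZ1. SARS2 and MRPS12, a mitochondrial ribosomal protein gene with which it shares exonic sequence, were lower by 2.65 and 2.83 on the log2 scale. KARS1 was lower while TERF2IP, a telomere protein gene, was higher (94.6 and 93.9 against 153 and 164 CPM). WARS1 was lower while WDR25 was higher (0.49 ± 0.20; edgeR adjusted p = 0.0267). RARS2 was higher while ORC3, of the origin recognition complex, was at 13.2 and 13.5 against 13.1 and 15.5 CPM (edgeR adjusted p = 0.488). These neighbours were chosen by position, and only some are named.

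Other genes of the pathway were read from lists of named genes. As a background to their counts, 41.3% of all tested genes were called lower and 42.8% higher. Among protein-coding genes the shares were 48.8% and 38.5%. Of 16 tested tRNA charging partners 10 were lower and 2 higher (median −0.64). XPOT, which exports tRNA from the nucleus, was at 296 and 280 CPM with DMSO and at 46.8 and 46.7 CPM with MZ1. TUFM, the mitochondrial elongation factor that receives charged tRNA, was lower by 0.83 ± 0.05, whereas its cytosolic counterpart EEF1A1 was higher by 0.48 ± 0.03. SEPSECS, the last enzyme of selenocysteine-tRNA synthesis, was higher, at 18.4 and 15.4 against 39.2 and 37.5 CPM. The number called higher was 4 under upper-quartile scaling. In the list of tRNA transcription and maturation genes 22 of 29 were lower and 4 higher (median −0.89), or 7 higher with upper-quartile scaling. GTF3C6, a subunit of the RNA polymerase III factor TFIIIC, was at 41.2 and 37.1 CPM with DMSO and at 0.212 and 0.578 CPM with MZ1. TSEN15, of the tRNA splicing endonuclease, and POLR3D, of RNA polymerase III, had log2 fold changes of −3.04 ± 0.09 and −2.63 ± 0.09. MAF1, the repressor of RNA polymerase III, was higher, at 132 and 130 CPM with DMSO and 164 and 166 CPM with MZ1.

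Genes of the response to uncharged tRNA and amino acid transporter genes were mostly lower. The share called lower was 41.3% over all tested genes and 48.8% over protein-coding ones. Of 22 tested genes of the GCN2 and ATF4 list 16 were lower and 4 higher (median −1.43). ATF4 mRNA was at 459 and 469 CPM with DMSO and at 365 and 357 CPM with MZ1, a log2 fold change of −0.36, and its protein was not measured. PYCR1, of proline synthesis, was at 97.1 and 106 against 1.06 and 0.940 CPM, and EIF4EBP1, a repressor of translation initiation, at 133 and 131 against 7.29 and 8.89 CPM. EIF2AK4, the gene of GCN2 itself (named outside the rule), was at 95.1 and 87.3 against 24.5 and 28.5 CPM. PPP1R15A, which reverses the phosphorylation that GCN2 sets, went the other way, from 23.0 and 27.4 to 142 and 146 CPM, and DDIT4 was higher by 1.44 ± 0.08, with 41.2% of its exonic length shared with an antisense gene. ASNS was called higher from 2.32 and 2.24 to 5.16 and 4.55 CPM, with 44.6% of its exonic length shared with another gene. Of 15 amino acid transporter genes 14 were lower and 1 higher (median −1.99). SLC7A1, which imports arginine and lysine, was at 223 and 239 against 6.65 and 7.66 CPM, and SLC38A5, which carries glutamine and histidine, at 107 and 109 against 1.06 and 1.73 CPM. SLC38A2, another neutral amino acid transporter, was the gene called higher (0.41 ± 0.04).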

How the data were processed

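The deposited values are raw counts of reads per gene under Ensembl IDs, per the file headers. HISAT2 2.2.0 and hg38 are named in the submitters' processing notes. Libraries were made from total RNA with an Illumina TruSeq RNA kit, per the labels' protocols. What counted the reads, on which annotation and with which strand setting, is not given in the sources used here. The gene name table paired 28597 of 28814 IDs with a symbol. Positions, exonic lengths and overlaps come from GENCODE release 29 (GRCh38), which holds all the IDs.

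The fit was run with edgeR 4.0.16 under R 4.3.3 (filterByExpr by group, TMM, glmQLFit and glmQLFTest on 4 libraries, treatment as the only term, Benjamini-Hochberg over all tested genes, threshold 0.05). Each standard error is derived from the F statistic and the coefficient without shrinkage. Replicates differed by more than sampling noise (DMSO 2.44 and MZ1 2.17 in chi-square per degree of freedom), so each library counts once. With 2 libraries per group precision depends on edgeR's pooling of variance over genes. The main fit was also run on simulated data in which only a small share of genes was changed. In these data 84.2% of tested genes were called, and that run does not cover change so wide. DESeq2 1.42.0, limma 3.58.1 (voom), other scalings and filters, the replicate block and leaving out each library were alternatives. The members, lists and motifs were chosen with earlier results of these data known. All members are named, and for each list in each direction up to 3 called genes, taken by smallest adjusted p, unless said otherwise. Not every gene of that rule is described. Start windows and sequences are RefSeq's (GRCh38.p14). Some genes of these lists are not reported here.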

Additional observations from a re-analysis of the deposited data

How the results depend on the processing

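No member changed direction in any of the 12 alternatives, and 35 of the 37 kept their call in all of them, the exceptions being CARS2 and HARS2. The count of lower members was 30 in every alternative and that of higher members was 5 to 7. Upper-quartile scaling moved the median log2 fold change of all genes up by 0.27. The cytosolic median of −1.71 became −1.43 with that scaling, −1.68 with RLE scaling and with DESeq2, −1.78 with library totals alone and without a count filter, and −1.65 with the stricter filter. It ran from −1.75 to −1.68 when 1 library was left out. The mitochondrial median of −1.85 became −1.58 with upper-quartile scaling and −1.92 with library totals alone and without a count filter, and ran from −1.90 to −1.77 when 1 library was left out. Each left-out fit has 1 library in a group, which is assumed to vary like the others. Upper-quartile scaling gave 4 higher genes among tRNA charging partners and 7 among tRNA transcription and maturation genes, in place of 2 and 4. With the replicate number as a block 7 members were higher and 30 lower, and the block changed no call of a gene named with a test here. Same-numbered libraries did not deviate together (correlation 0.00618), so the numbers are not taken as pairs. Depth limits SARS2, with 9 and 10 reads in the MZ1 libraries, and FARS2, with 14 and 39. The cause of the other shifts was not tested.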
